A study of Daphnia magna with 48 samples.

Results

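The 85 array probes described here gave higher expression ratios in exposed than in control Daphnia magna with most of the chemicals that moved many probes in this series. They were chosen from 6006 probes by their measured values. For isobutanol, 3-chloropropanol, 2,3,4-trichloroaniline, 3,4-dichlorophenol and cadmium, the mean of the 3 control arrays was subtracted from the mean of the 3 exposed arrays. A probe was kept when this log2 difference was at least 0.4 with at least 4 of the 5 chemicals and above 0 with all 5. The differences of the 85 with these 5 chemicals are therefore a description, and they were tested with a further 3 chemicals, which the choice did not use. A selecting chemical was tested only on lists redrawn without it.

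Young daphnids, small freshwater crustaceans used in toxicity testing, were kept for 96 h from birth at the EC10 of a chemical, the concentration that immobilised 10% of animals, or without it as controls. The 8 exposed groups received isobutanol, 3-chloropropanol, aniline, 4-chloroaniline, 3,5-dichloroaniline, 2,3,4-trichloroaniline, 3,4-dichlorophenol or cadmium, and each chemical had a control group of its own. Each of the 16 groups had 3 biological replicates, each the whole bodies of 30 pooled animals at day 4, and the medium is recorded as renewed every 48 h for the 4 anilines. Each of the 48 arrays set 1 sample in 1 dye against a reference mixed from control and exposed samples in the other.

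Narcosis is the loss of activity that many organic chemicals cause by dissolving in cell membranes. Alcohols such as isobutanol are non-polar narcotics, while anilines and phenols are polar narcotics, which are somewhat more toxic than their solubility in fat alone would give. Anilines with more chlorine atoms are more fat-soluble. Cadmium, a metal that binds to thiol groups of proteins, is no narcotic. Genes that respond to many unlike stressors are often described as a general stress response.

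The probes carry design numbers only, and none of the 6006 was found in the gene table used here, so no gene, function or sequence can be given for any of them. All 85 had different design numbers, and no design number occurred on more than 1 probe of the table. Design names end in P1 to P4, and 48.2%, 20%, 24.7% and 7.06% of the 85 had these endings in that order, against 41.4%, 24.9%, 26.1% and 7.56% of all 6006.

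The sign of the ratios is not stated in the labels, and all directions here rest on reading the deposited value as sample over reference. Within a group, arrays of opposite dye had a median r of 0.44 over probes, and r was above 0 in 30 of 32 such pairs, with a range of -0.27 to 0.90. Most arrays thus ran the same way whatever their dye, which these values do not show for each single array. A mean ratio to a pooled reference can be read for balance around 1. Over the 510 probes with an SD over arrays of at least 0.6, the median log2 of the mean ratio was -0.00 in the deposited sign and 0.47 in the opposite sign. Over the 46 of the 85 probes that passed this SD it was 0.46 in the deposited sign and 0.06 in the opposite one, so the selected probes themselves did not favour the reading used. Correlations under -0.3 over probes occurred in 5 of 552 array pairs of equal dye, down to -0.41. With the sign turned, every value given as higher reads as lower, while counts of called probes and correlations stay as they are. The 3-chloropropanol control arrays 1 and 3 were nearly identical: the SD of their difference over probes was 0.132, against 0.218 to 0.520 for other pairs of the same dye within a group. With these 2 arrays averaged to 1 sample, the selection rule gave 83 probes.

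On the arrays used for the choice, the 85 probes stood apart from the other probes by construction, but their size differed by chemical. The median difference was 1.01 with isobutanol, 0.78 with 3-chloropropanol, 0.69 with 2,3,4-trichloroaniline, 0.71 with 3,4-dichlorophenol and 0.80 with cadmium, and the median of all 6006 probes lay between -0.01 and 0.02. Isobutanol gave the largest of the 5 differences for 28 probes, 3-chloropropanol for 20, 2,3,4-trichloroaniline for 16, cadmium for 15 and 3,4-dichlorophenol for 6. The smallest came with 2,3,4-trichloroaniline for 28 probes. A difference of at least 1 was seen for 43 probes with isobutanol and for 23 to 29 with the other 4. The mean over the 5 chemicals ran from 0.40 to 1.85, with a median of 0.85. Of the 85 probes, 44 reached 0.4 with all 5 chemicals and 41 with 4. A change of RNA level within cells and a change in the share of a tissue in the body cannot be told apart in whole-body RNA.

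The median of the 85 probes was taken on each array as a summary of their level. Isobutanol arrays had 0.88, 0.73 and 0.85 in exposed animals, against -0.19, -0.06 and -0.17 in controls. Cadmium arrays had 1.19, 1.11 and 0.80 in exposed animals, against 0.20, 0.15 and 0.16 in controls, which was the highest level among the 8 control groups. Exposed and control arrays did not overlap with any of the 5 chemicals used for the choice, as the choice made likely. With 3-chloropropanol the medians were 0.49, 0.59 and 0.44 in exposed animals and -0.31, -0.12 and -0.32 in controls. With 2,3,4-trichloroaniline they were 0.62, 0.83 and 0.65 in exposed animals and -0.03, 0.01 and -0.22 in controls. With 3,4-dichlorophenol they were 0.90, 0.40 and 0.52 in exposed animals and -0.14, -0.22 and -0.07 in controls. The first exposed 3,4-dichlorophenol array stood above the other two, and without it the selection rule gave 75 probes, the fewest when any 1 of the 30 arrays was left out.

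**Figure D1:**
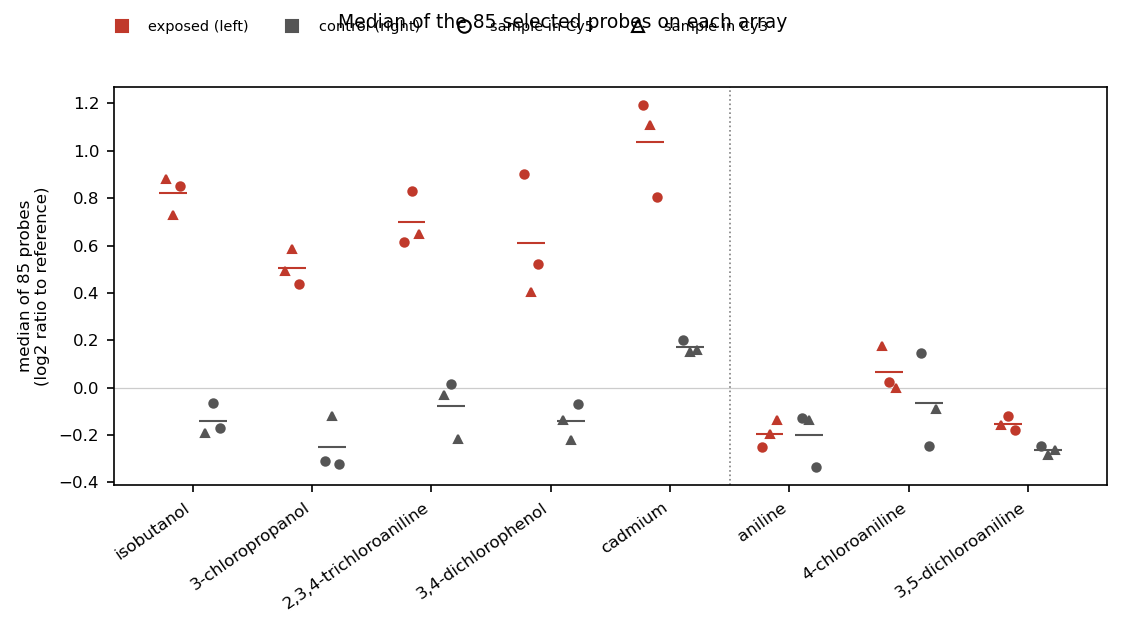
Median log2 ratio to the reference of the 85 selected probes on each of the 48 arrays, with exposed arrays (red) left of control arrays (grey), circles for samples in Cy5, triangles for samples in Cy3 and a line at the group mean (n = 3). Left of the dotted line, with the 5 chemicals used for the choice, group means were 0.50 to 1.04 in exposed animals and -0.25 to 0.17 in controls; right of it, they were -0.19 to 0.07 in exposed animals and -0.27 to -0.06 in controls.

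Shifts were smaller with the 3 less chlorinated anilines. Aniline arrays had medians of -0.25, -0.20 and -0.14 in exposed animals, against -0.13, -0.14 and -0.34 in controls. With 4-chloroaniline the values were 0.18, 0.02 and 0.00 in exposed animals and 0.15, -0.25 and -0.09 in controls. With 3,5-dichloroaniline they were -0.16, -0.12 and -0.18 in exposed animals and -0.25, -0.29 and -0.26 in controls. Exposed and control arrays overlapped for aniline and 4-chloroaniline. They did not overlap for 3,5-dichloroaniline, where the group means were -0.15 ± 0.03 in exposed animals and -0.27 ± 0.02 in controls (SD, n = 3 each). The median plain difference of the 85 probes was 0.02 with aniline, 0.19 with 4-chloroaniline and 0.10 with 3,5-dichloroaniline. Differences of at least 0.4 were reached by 6, 27 and 9 of the 85 probes with aniline, 4-chloroaniline and 3,5-dichloroaniline in that order. The differences ran from -1.50 to 0.67, from -0.56 to 1.81 and from -0.58 to 1.06 in the same order. No count over all probes is given for this size, so these counts have no background.

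**Figure D2:**
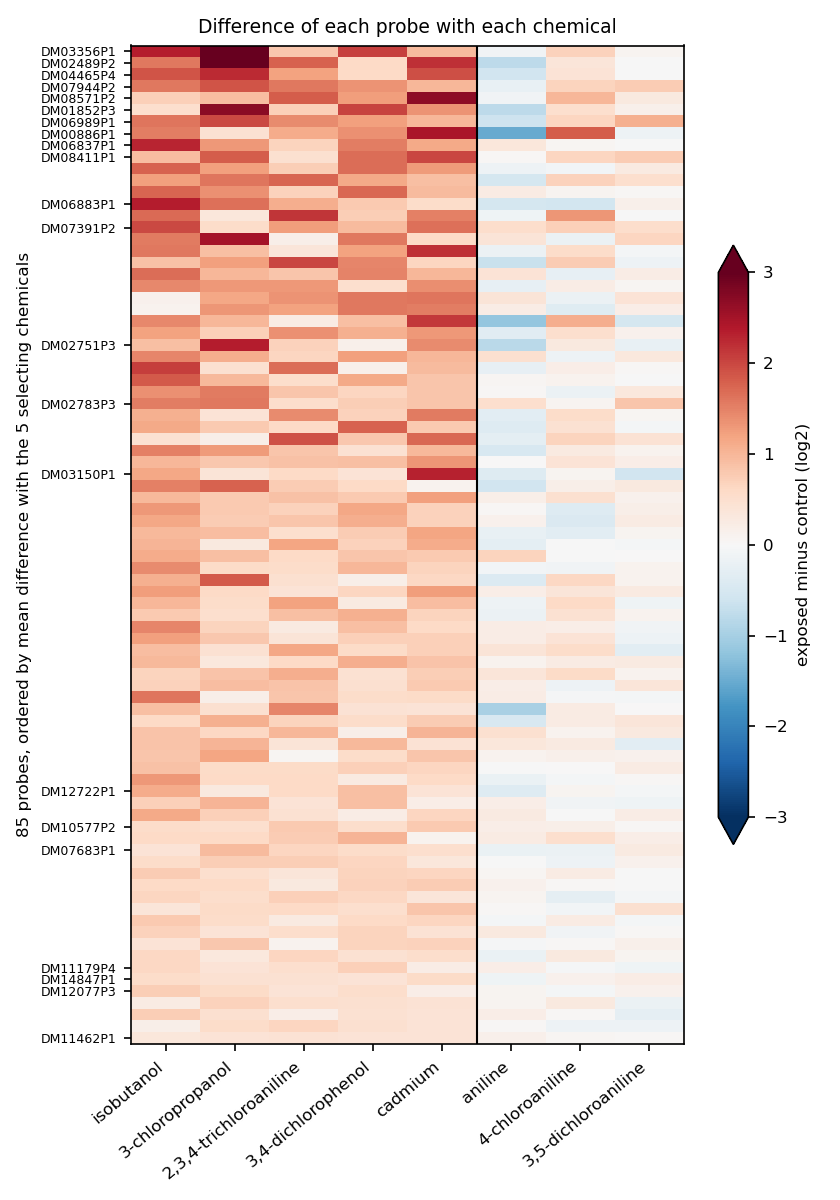
Exposed minus control log2 difference of the 85 probes (one line each, ordered by their mean difference with the 5 selecting chemicals) with the 8 chemicals, on a colour scale that ends at 3 on either side of 0. The 5 columns left of the black line chose the probes and are red throughout; in the 3 columns right of it the medians are 0.02 for aniline, 0.19 for 4-chloroaniline and 0.10 for 3,5-dichloroaniline, and both colours occur.

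These 3 chemicals were tested in 1 limma model fitted to all 6006 probes on all 48 arrays, with a mean for each group and a dye term. P-values were two-sided and adjusted by Benjamini-Hochberg over the 6006 probes within each comparison, and a probe was called at an adjusted p under 0.05. None of the 85 probes was called with aniline, where 0.00% of all probes were called. None was called with 4-chloroaniline, where 2 of 6006 probes, or 0.0333%, were called. None was called with 3,5-dichloroaniline, where 0.00% of all probes were called. Nor was any called in the mean of the 3 changes, where 1 of 6006 probes, or 0.0167%, was called. The share of called probes was thus at or near 0 for the 85 and for the whole table alike.

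The limma changes of the 85 probes, adjusted for dye, had a median of -0.01 with aniline, 0.16 with 4-chloroaniline, 0.09 with 3,5-dichloroaniline and 0.08 in the mean of the 3. They were above 0 for 42, 62, 58 and 64 of the 85 probes in the same order. The last count is 75.3% of the 85, against 50.3% of all probes. At an unadjusted p under 0.05 there were 12 of the 85 with aniline, of which 5 were higher and 7 lower in exposed animals, or 14.1% against 6.18% of all probes. With 4-chloroaniline there were 18, of which 17 were higher, or 21.2% against 10% of all probes. With 3,5-dichloroaniline there were 4, or 4.71% against 4.41%. In the mean of the 3 there were 14, of which 13 were higher, or 16.5% against 5.58%. The median absolute change with aniline was 0.25 over the 85 and 0.10 over all probes. The spread among aniline replicates (residual SD) was also larger for the 85, at 0.22 against 0.14 for all probes. The probes share arrays and are not independent of each other. The 95% interval reached a median of 0.50 to either side of a change with 1 chemical and 0.29 for the mean of the 3, before any adjustment, so smaller changes were not detectable for a typical probe.

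Counts of probes whose 3 exposed arrays all lay above or all below the 3 controls differed between the 3 chemicals. With aniline, 4 of the 85 lay above (4.71%, against a background of 3.46% of all probes) and 13 lay below (15.3%, against 5.36%). With 4-chloroaniline, 11 lay above (12.9%, against 5.13%) and 2 lay below (2.35%, against 3.90%). With 3,5-dichloroaniline, 7 lay above (8.24%, against 4.58%) and 4 lay below (4.71%, against 4.61%). More of the 85 lay below than above with aniline and more above than below with 4-chloroaniline by this count. With aniline, though, 42 of the 85 changes were above 0, and no single probe passed the adjusted test with either chemical.

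The 3 less chlorinated anilines, which differ in chlorine number, were compared through the changes themselves, at the EC10 of each. Each chlorine number is 1 chemical in 1 experiment, so it cannot be told apart from the experiment or the concentration. The moderated F test among the 3 changes called none of the 85 probes and 0.00% of all, with 13 of the 85, or 15.3%, at an unadjusted p under 0.05, against 8.61% of all probes. The pairwise differences, 3 per probe and each adjusted over all probes, also called none. The median difference over the 85 was 0.17 for 4-chloroaniline minus aniline, 0.13 for 3,5-dichloroaniline minus aniline and -0.10 for 3,5-dichloroaniline minus 4-chloroaniline. At an unadjusted p under 0.05 there were 13 of the 85 for the first of these (15.3%, against 8.89% of all probes), 5 for the second (5.88%, against 5.56%) and 12 for the third (14.1%, against 8.67%). The 95% interval of such a difference reached a median of 0.70 to 0.71 to either side, so the absence of a call does not show that the 3 chemicals act alike. Over the 85 probes, differences with aniline and with 4-chloroaniline had an r of -0.47, with a rank correlation of -0.37. Those with aniline and 3,5-dichloroaniline had an r of 0.18, and those with 4-chloroaniline and 3,5-dichloroaniline -0.06. Over all probes the r was 0.05, -0.17 and -0.11 in that order. Each of these chemicals has its own controls, but all share the reference RNA, and neither the 85 probes nor their errors are independent. Dye was also unequal: Cy5 was more frequent in controls with aniline and 4-chloroaniline, and in exposed animals with 3,5-dichloroaniline. The part of dye in these r was not tested. The mean difference with the 5 selecting chemicals had an r of 0.40 with the difference for 4-chloroaniline, 0.26 with 3,5-dichloroaniline and -0.35 with aniline. Over all probes these were 0.09, 0.07 and -0.08.

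The choice was also repeated without each of the 5 selecting chemicals in turn, so that the chemical left out could be tested. A list then held probes at 0.4 or more in at least 3 of the remaining 4 chemicals and above 0 in all 4. Each such list contains all 85 probes by construction, and a probe of the list that is called higher with the left-out chemical nearly always meets the full rule. Without isobutanol the list had 92 probes, of which 64 were called higher with isobutanol, against 6.29% of all probes, and their median change was 1.00. Without 3-chloropropanol it had 116 probes, of which 56 were called higher with 3-chloropropanol, against 5.13%, with a median of 0.61. These were 69.6% and 48.3% of the lists. Of the called probes, 64 and 55 were among the 85, so these calls are no evidence beside the choice of the 85.

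Without 3,4-dichlorophenol the list had 113 probes, of which 40 were called higher with 3,4-dichlorophenol, or 35.4% against 1.28% of all probes, with a median of 0.56. Without cadmium it had 123 probes, of which 42 were called higher with cadmium, or 34.1% against 1.78%, and 2 were called lower, against 1.17% of all, with a median of 0.59. Without 2,3,4-trichloroaniline it had 153 probes, of which 35 were called higher with 2,3,4-trichloroaniline, or 22.9% against 2.30%, and 10 were called lower, against 1.60% of all. Its median of 0.38 was the smallest of the 5 lists. The 40, 42 and 35 probes called higher were all among the 85. These calls too are therefore no evidence beside the choice of the 85. The lists held 51.9% of all probes called higher with 3,4-dichlorophenol, 39.3% with cadmium, 25.4% with 2,3,4-trichloroaniline, 18.2% with 3-chloropropanol and 16.9% with isobutanol. Without all 3-chloropropanol arrays, 4 lists drawn from 3 chemicals each gave 62.2% of 148 probes called higher with isobutanol, against 7.28% of all probes, and 26.9% of 223 with 2,3,4-trichloroaniline, against 2.81%. They gave 25.8% of 190 with 3,4-dichlorophenol, against 1.55%, and 27.1% of 207 with cadmium, against 2.08%. Each of these lists also contains all 85 probes by construction, so these shares too are no evidence beside the choice of the 85.

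**Figure D3:**
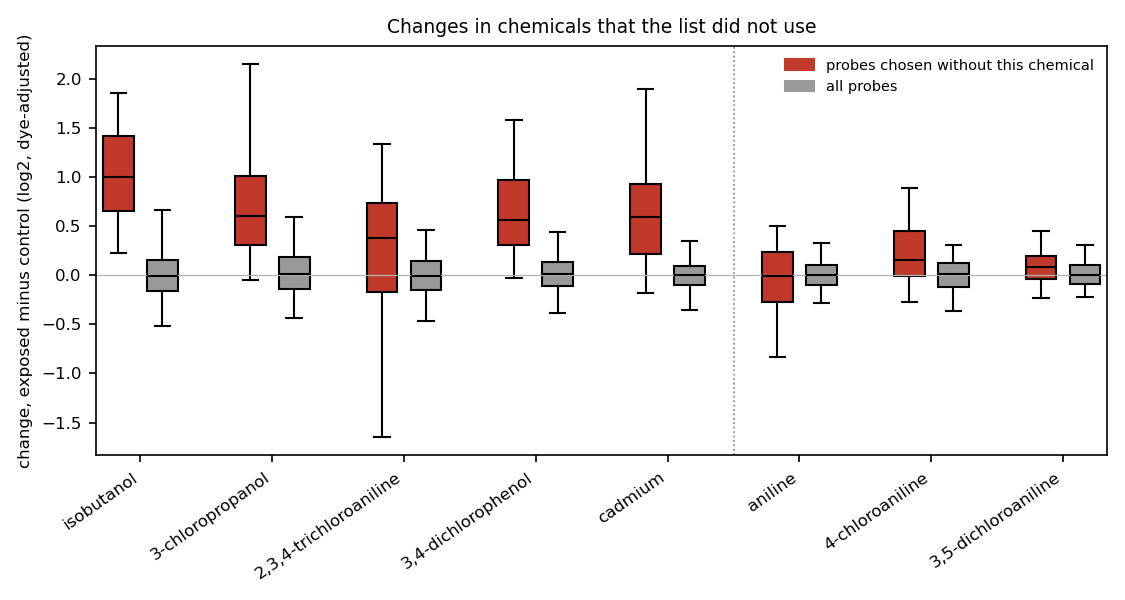
Dye-adjusted log2 change, exposed minus control, of probes chosen without the chemical shown (red, left of each pair) and of all 6006 probes (grey); boxes span the quartiles with the median as a line, and whiskers run from the 5th to the 95th percentile of probes. Medians of the red boxes are 1.00, 0.61, 0.38, 0.56 and 0.59 for isobutanol, 3-chloropropanol, 2,3,4-trichloroaniline, 3,4-dichlorophenol and cadmium, and -0.01, 0.16 and 0.09 for aniline, 4-chloroaniline and 3,5-dichloroaniline, for which the red box holds the 85 probes.

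The largest mean difference over the 5 selecting chemicals, 1.85, belonged to DM03356P1. It had 4.5, 4.36 and 4.65 with isobutanol, against 1.52, 2.23 and 2.69 in its controls. With 3-chloropropanol it had 0.99, 2.00 and 0.07 in exposed animals, against -2.79, -0.74 and -2.67 in controls. The exposed arrays lay above the controls in both, and the 2 lowest 3-chloropropanol controls are the nearly identical pair. With aniline DM03356P1 had -0.44, -0.55 and -0.48 in exposed animals, against -0.13, -0.03 and -0.96 in controls, and with the other 2 less chlorinated anilines the groups overlapped as well. Its limma change was -0.29 ± 0.52 (SE) with aniline, 0.50 ± 0.52 with 4-chloroaniline and 0.25 ± 0.52 with 3,5-dichloroaniline.

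DM02489P2 followed with a mean difference of 1.83 and DM04465P4 with 1.58, both also largest with 3-chloropropanol, at 2.99 and 2.25. DM02489P2 had 4.36, 4.36 and 4.84 in isobutanol-exposed animals, against 2.43, 3.27 and 3.08 in their controls. In cadmium-exposed animals it had 0.74, 1.80 and 1.01, against -0.53, -1.38 and -1.08 in controls. The control levels of DM02489P2 thus differed between experiments by more than its difference with either chemical. With aniline its exposed arrays, at -1.74, -1.37 and -1.0, overlapped its controls, at -1.11, -0.26 and -0.40.

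DM08571P2 had its largest difference with cadmium, 2.68, the largest of any of the 85 with that metal. Its values were 1.82, 2.33 and 2.58 in cadmium-exposed animals, against -0.36, -0.56 and -0.38 in controls. With 2,3,4-trichloroaniline it had 1.36, 1.40 and 1.56 in exposed animals, against -0.18, -0.52 and -0.45 in controls. It also came closest to a call outside the selecting chemicals. With 4-chloroaniline it had 0.68, 0.19 and 0.46 in exposed animals, against -0.30, -0.81 and -0.54 in controls, with no overlap. That change of 1.00 ± 0.21 (SE) had an adjusted p of 0.0604 in limma and 0.0121 with array quality weights. It was 0.0342 over only the probes with an SD above the median. That SD included the arrays of the selecting chemicals, so passing it was partly fixed by the choice. Leaving out 1 array of 4-chloroaniline called DM08571P2 in some fits, at 0.0294 to 0.0482, and not in the others. Nor was it called after quantile normalization, scaling to equal spread or averaging the near-identical 3-chloropropanol controls. The same held without the dye term and with only the arrays compared. With aniline its change was -0.10 ± 0.21, with exposed and control arrays overlapping.

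DM07391P2 had the largest mean change over the 3 less chlorinated anilines. With aniline it had -0.31, 0.09 and -0.42 in exposed animals, against -0.74, -0.52 and -0.92 in controls. With 4-chloroaniline it had -0.21, -0.64 and 0.11 in exposed animals, against -0.97, -1.0 and -0.93 in controls. With 3,5-dichloroaniline it had -0.24, -0.11 and -0.24 in exposed animals, against -0.98, -0.80 and -0.36 in controls. The exposed arrays lay above the controls with all 3. The mean change was 0.58 ± 0.13 (SE), with an adjusted p of 0.280 in limma and 0.0192 to 0.941 over the alternative settings. With isobutanol it had 0.87, 0.50 and 0.60 in exposed animals, against -1.25, -1.39 and -1.31 in controls.

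DM08411P1 and DM02783P3 came next by this mean, with 0.52 ± 0.17 and 0.49 ± 0.26 (SE), both with an adjusted p of 0.879 in limma. DM08411P1 had 2.11, 2.09 and 2.10 in cadmium-exposed animals, against 0.25, -0.12 and 0.16 in controls. With 3,5-dichloroaniline it had -0.05, 0.78 and 0.73 in exposed animals, against -0.15, -0.29 and -0.40 in controls, and the groups did not overlap. At the other end stood DM03150P1 with -0.33 ± 0.30, DM06883P1 with -0.31 ± 0.13 and DM02751P3 with -0.31 ± 0.27. DM06883P1 had -0.62, -0.61 and -0.51 in aniline-exposed animals, against -0.04, -0.07 and -0.08 in controls. With 4-chloroaniline it had -0.27, -0.31 and -0.49 in exposed animals, against 0.22, 0.16 and 0.23 in controls. Both were differences without overlap and below 0, opposite to its differences of 2.35 with isobutanol and 1.66 with 3-chloropropanol, while with 3,5-dichloroaniline its groups overlapped. Its adjusted p was 0.753 with aniline and 0.342 with 4-chloroaniline in limma. With aniline the adjusted p was 0.0394 after quantile normalization and 0.0255 with array quality weights, which called 0.583% and 10.4% of all probes. No other setting called DM06883P1 with aniline.

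DM00886P1 had the largest SD of its 8 changes, 1.29. With aniline it had -0.85, -0.15 and -0.51 in exposed animals, against 0.59, 0.57 and 1.84 in controls. With 4-chloroaniline it had 0.71, -1.85 and 1.62 in exposed animals, against -1.55, -1.18 and -2.20 in controls. Exposed animals were lower with aniline without overlap, and 2 of 3 exposed arrays were above all controls with 4-chloroaniline. The changes were -1.61 ± 0.58 and 1.69 ± 0.58 (SE) in that order, and the difference between them of 3.31 had an adjusted p of 0.368 in limma. Without the second exposed 4-chloroaniline array, the change with 4-chloroaniline was 2.70 with an adjusted p of 0.0371. With 3,5-dichloroaniline its levels were -2.47, -2.56 and -2.27 in exposed animals and -2.55, -2.14 and -2.16 in controls, on average the lowest of the 3 experiments in both groups.

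DM01852P3 followed DM02489P2 by this SD, at 1.11 and 1.27, with changes of -0.84 ± 0.31 with aniline, 0.45 ± 0.31 with 4-chloroaniline and 0.20 ± 0.31 (SE) with 3,5-dichloroaniline. It had -0.47, -0.43 and -0.34 in aniline-exposed animals, against 0.48, 0.62 and 0.03 in controls. With 4-chloroaniline it had -0.38, -0.69 and -0.23 in exposed animals, against -1.05, -0.91 and -0.84 in controls. The exposed animals of both experiments stood close together, and their control groups lay on either side of them. With aniline the adjusted p was 0.704 in limma, 0.0273 after quantile normalization and 0.00453 with array quality weights. Quantile normalization called 0.583% of all probes with aniline and array weights called 10.4%. No other setting called DM01852P3 with aniline.

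The steadiest of the 85 by the same SD were DM11462P1, DM14847P1 and DM10577P2, at 0.18, 0.23 and 0.27. DM11462P1 is also among the probes just inside the rule and has the smallest mean difference, 0.40. It had 0.65, 0.79 and 0.60 in isobutanol-exposed animals, against 0.37, 0.36 and 0.32 in controls. With cadmium it had 0.52, 0.47 and 0.50 in exposed animals, against 0.16, -0.06 and 0.16 in controls. All 5 of its differences lay between 0.33 and 0.44, and its changes with the 3 less chlorinated anilines were 0.11, 0.03 and 0.07, each with an SE of 0.10. The rule takes the 4th largest of the 5 differences, which was 0.40 for DM12077P3, DM11462P1 and DM12722P1, the nearest inside, and 0.38 for DM08465P1, DM03029P4 and DM01378P1, the nearest outside. A further 26 probes reached 0.4 with 4 chemicals but had a difference of 0 or less with the remaining one.

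**Figure D4:**
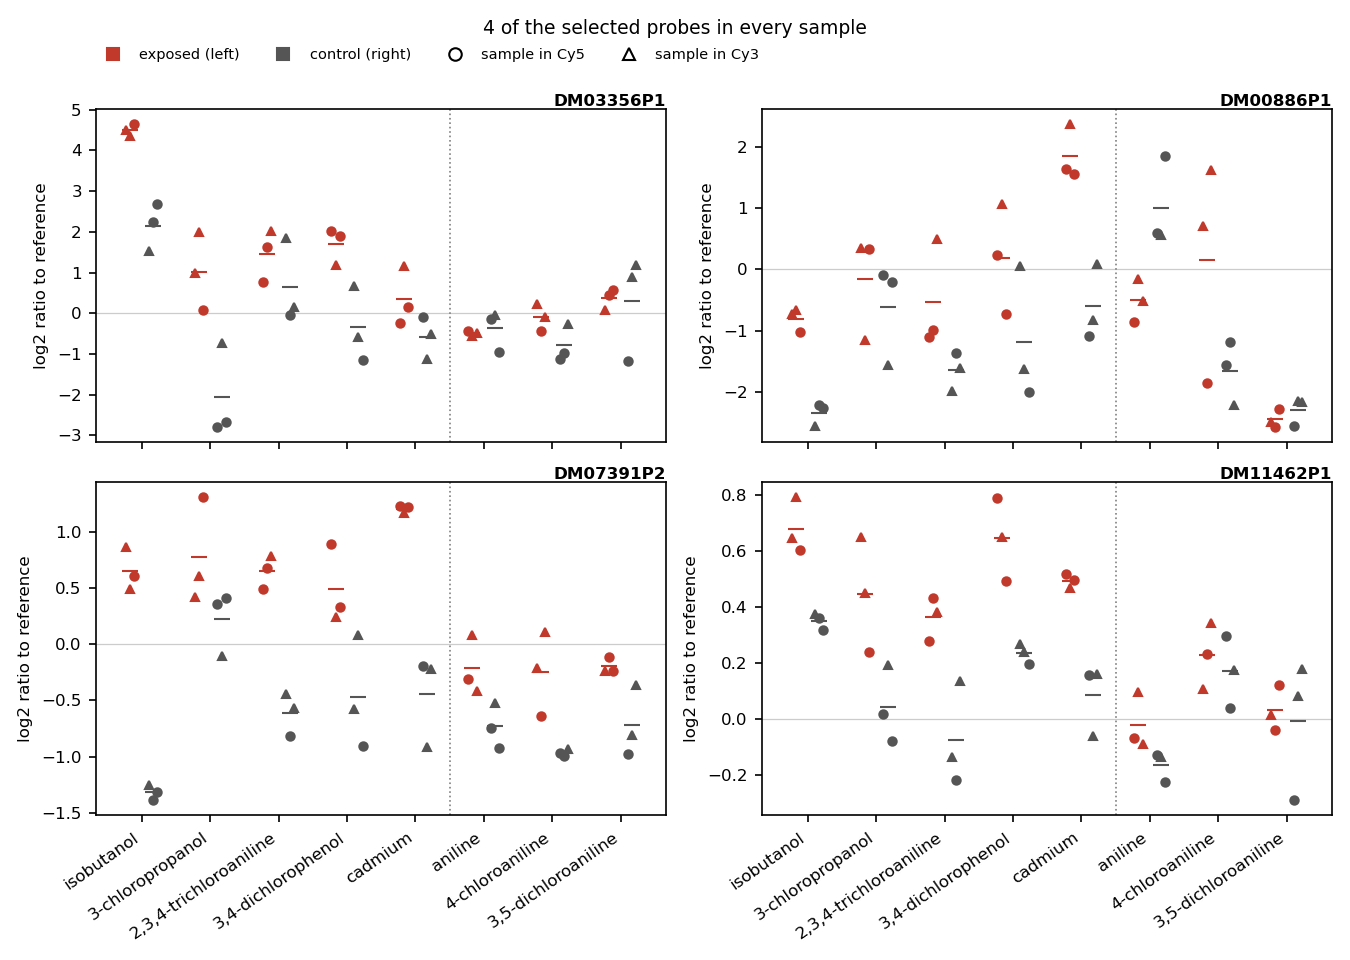
Log2 ratio to the reference in every sample for 4 of the 85 probes, with exposed arrays (red) left of control arrays (grey), circles for samples in Cy5, triangles for samples in Cy3 and a line at the group mean (n = 3). DM03356P1 has the largest mean difference with the selecting chemicals (1.85), DM00886P1 the largest SD of its 8 changes (1.29), DM07391P2 the largest mean change with the 3 chemicals right of the dotted line (0.58), and DM11462P1 the smallest SD (0.18).

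Control levels of these probes differed between experiments. The range of the 8 control group means had a median of 1.06 over the 85 probes, against 0.51 over all probes, and ran from 0.36 to 4.80. It was larger than the probe's own mean difference with the 5 selecting chemicals for 56 of the 85. Among the control groups of the 3 less chlorinated anilines, which the choice did not use, an F test in limma called 19 of the 85, or 22.4%, against 16.8% of all probes. The smallest adjusted p, 0.000525, was that of DM04062P3. It had 0.63, 1.06 and 2.29 in aniline controls, -1.60, -1.25 and -1.07 in 4-chloroaniline controls and -1.92, -1.03 and -1.36 in 3,5-dichloroaniline controls. The share of the 85 was little above that of the whole table, and each experiment was compared with its own controls throughout.

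A dye effect was called on 30 of the 85 probes, 16 higher and 14 lower in Cy5, and on 35.2% of all probes. Dyes were unequal within groups, with 1 or 2 of 3 samples in Cy5. With the dye-adjusted changes in place of plain means, the rule gave 84 probes, of which 78 were among the 85.

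The 85 probes had weakly positive correlations on average among replicates of a group. Group means and dye were removed from each probe, and the remainder was correlated between probes. The mean r over the 3570 pairs of the 85 was 0.13 on the 48 arrays, against 0.00158 over pairs of all 6006 probes, with a range of -0.67 to 0.96, and 80 pairs had r of at least 0.8. On the 18 arrays of aniline, 4-chloroaniline and 3,5-dichloroaniline, it was 0.10, and on the 24 control arrays it was 0.12. The points of each correlation are arrays of pooled animals that share a reference and a normalization, and no p is given. The median of all probes was nearly the same on every array, so positive and negative r largely cancel over all probes. The mean over all probes is therefore no baseline for 85 probes chosen by a shared direction of difference. Whether the 85 vary together more than similarly chosen probes was not tested. Pairs that went together on the 30 arrays of the selecting chemicals tended to do so on the other 18, with a correlation over pairs of 0.41.

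Some of the 85 formed sets. Average-linkage clustering of the remainders on the 30 arrays of the selecting chemicals, at a correlation distance of 0.4 and with at least 8 members, gave 3 sets, which were then read on the other 18 arrays. The distance was picked after several had been looked at, so the sets are descriptions. The first, with DM01250P1, DM01294P1, DM06837P1 and 17 others, had 20 probes and a mean r of 0.74 on the 30 arrays and 0.38 on the 18. The second, with DM04465P4, DM03356P1, DM02489P2, DM01852P3 and DM06883P1, had 12 probes and values of 0.77 and 0.62. The third, with DM06989P1, DM07944P2 and DM02783P3, had 10 probes and values of 0.78 and 0.73. Without the 3-chloropropanol arrays, the mean r over the remaining arrays of the selecting chemicals was 0.41 for the first set. It was 0.80 for the second and 0.80 for the third, so the value of 0.74 for the first rests largely on 3-chloropropanol. All 66 pairs of the second and all 45 of the third had r above 0 on the 18 arrays, against 154 of 190 pairs of the first. Between sets, the mean r on the 18 arrays was -0.03 for the first with the second, 0.08 for the first with the third and -0.12 for the second with the third. At distances of 0.5 and 0.6, 3 sets also resulted, and in order of size their mean r on the 18 arrays was 0.29, 0.53 and 0.62 at 0.5, and 0.22, 0.47 and 0.62 at 0.6. The other 43 probes fell into no set at 0.4.

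**Figure D5:**
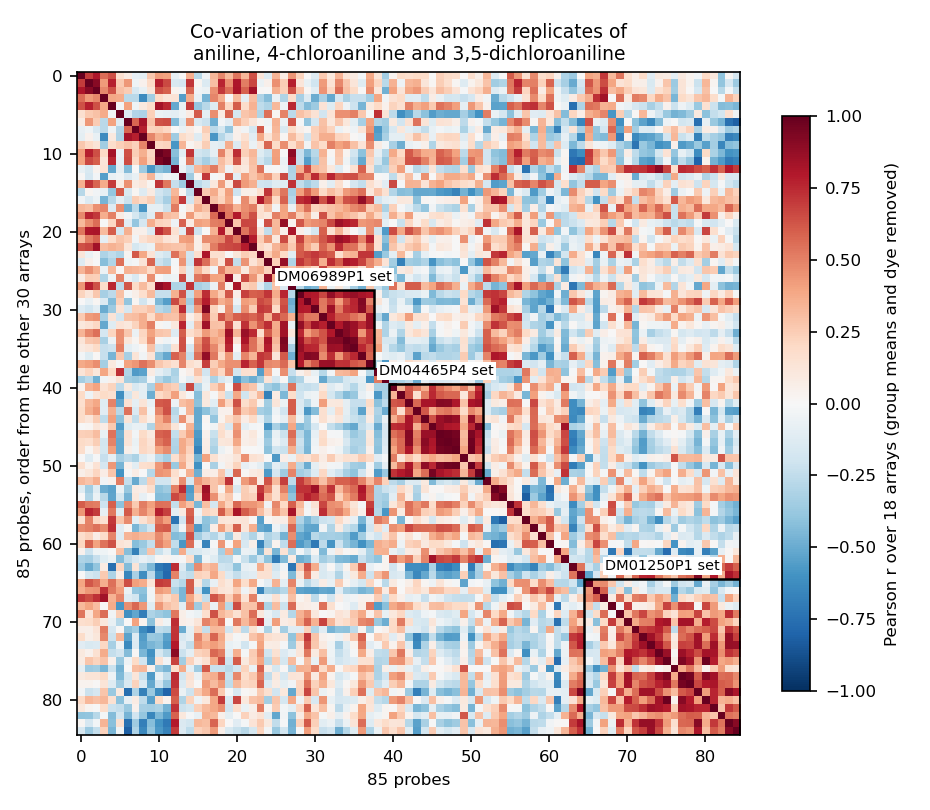
Pearson r between each pair of the 85 probes over the 18 arrays of aniline, 4-chloroaniline and 3,5-dichloroaniline after removal of group means and dye, with probes ordered by clustering on the other 30 arrays. The 3 boxes mark the sets found on those 30 arrays; within them the mean r shown is 0.73 for the DM06989P1 set, 0.62 for the DM04465P4 set and 0.38 for the DM01250P1 set.

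Single pairs in these sets were close. DM04465P4 and DM06988P1 had r of 0.96 on all 48 arrays and 0.97 on the 18, DM01250P1 and DM01294P1 had 0.96 on both, and DM06989P1 and DM07944P2 had 0.95 and 0.96. Without annotation it cannot be said whether such pairs measure the same gene. The sets were not confined to the 85: 162, 69 and 18 further probes had r of at least 0.8 with the mean of the first, the second and the third set on the 18 arrays.

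The set medians per array differed in where they were high. The DM04465P4 set had 2.63, 2.27 and 2.80 in isobutanol-exposed animals, against 0.70, 1.45 and 1.65 in controls, on average its highest levels in the series in both conditions. In its 3,5-dichloroaniline controls it had -0.82, 0.83 and 0.90, a spread wider than its difference from exposed animals, at 0.10, 0.46 and 0.59. With aniline it had -0.56, -0.66 and -0.58 in exposed animals, against -0.16, -0.09 and -0.21 in controls, so exposed animals were lower without overlap. The median change of its probes was -0.57 with aniline, 0.22 with 4-chloroaniline and 0.18 with 3,5-dichloroaniline, and 1, 11 and 10 of its 12 probes were above 0 in that order.

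The DM01250P1 set had its widest gap between exposed and control arrays with isobutanol, at 0.89, 0.79 and 0.84 in exposed animals against -0.53, -0.46 and -0.25 in controls. With 3,4-dichlorophenol it had 1.47, 0.85 and 1.22 in exposed animals, against -0.14, 0.00 and 0.27 in controls. With 4-chloroaniline it was flat, at 0.06, -0.04 and -0.05 in exposed animals and 0.02, 0.02 and 0.01 in controls. The mean r of its probes within an experiment was lowest there, at 0.04, followed by 0.12 with 3,5-dichloroaniline, 0.29 with cadmium and 0.34 with isobutanol. It was 0.45 with 2,3,4-trichloroaniline, 0.57 with aniline, 0.75 with 3,4-dichlorophenol and 0.90 with 3-chloropropanol.

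The DM06989P1 set kept a mean r of 0.66 to 0.90 within every one of the 8 experiments. In 3 of these, with 3-chloropropanol, 3,4-dichlorophenol and 3,5-dichloroaniline, the Cy5 arrays lay above the Cy3 arrays in both conditions. In 3,5-dichloroaniline samples it had -0.27 and -0.41 in exposed animals in Cy5 and -1.08 in Cy3, against -0.22 in controls in Cy5 and -1.38 and -1.31 in Cy3. Among 3,4-dichlorophenol samples it had 0.13 and 0.06 in exposed animals in Cy5 and -0.14 in Cy3, against -0.21 in controls in Cy5 and -0.78 and -1.11 in Cy3. Among 3-chloropropanol samples the exposed array in Cy5 had 1.42, while the 2 in Cy3 had -0.01 and 0.05. With a dye effect removed for each chemical on its own, the mean r on the 18 arrays was 0.63 for the DM06989P1 set, 0.63 for the DM04465P4 set and 0.40 for the DM01250P1 set, and 0.10 for the 85.

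The member that went most with the others by its mean r was DM07683P1, at 0.23, and the one that went least was DM11179P4, at -0.10. DM07683P1 had 1.02, 1.05 and 0.40 in 3-chloropropanol-exposed animals, against -0.31, 0.25 and -0.30 in controls. DM11179P4 had 0.16, 0.65 and 0.98 in 3,4-dichlorophenol-exposed animals, against -0.27, 0.06 and -0.16 in controls. Both separated exposed from control animals there without overlap.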

How the data were processed

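Gene expression was measured on 2-colour Agilent arrays. The deposited table holds log2 ratios of sample and reference for 48 arrays, made by the authors. The base of 2 was inferred from the values, and the authors' background correction is not stated in the labels. Spot brightness was not used, so no probe was set against background, and precision is limited by the number of arrays. The 27 control rows were left out of the choice and all tests, and were read only for the sign of the ratios by dye.

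The 85 probes, the lists and the sets were chosen with earlier results of these data known. limma 3.58.1 in R 4.3.3 was fitted to all 6006 probes with 16 group means and a dye term, with 31 residual and 3.65 prior degrees of freedom. Named are the 10 probes with the largest mean difference over the 5 selecting chemicals, any called with the 3 other chemicals, the 3 highest and 3 lowest by mean change with those 3, the 3 nearest either side of the rule, the 3 largest and 3 smallest SDs of the 8 changes, any sharing a design number, and the highest and lowest mean r. Others named were chosen after their values were seen. Same-numbered replicates of a chemical had r above 0.1 in 13 of 24 pairs, from -0.43 to 0.42, and with no chemical in all 3, so the numbers were not taken to pair samples. The fit was tested on simulated data. Figures were drawn with matplotlib in Python.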

Additional observations from a re-analysis of the deposited data

How the results depend on the processing

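With 1 array left out in turn, called probes among the 85 numbered 0 to 1 with aniline (1, DM04285P3, without control 1), 0 to 3 with 4-chloroaniline (3 without control 1 or exposed 2, 1 without control 3 or exposed 1), 0 with 3,5-dichloroaniline and in the mean of the 3, 0 to 1 among the 3 changes (1 without aniline control 1) and 10 to 29 among the 3 control groups. The last was 29 without aniline control 1, where 27.2% of all probes were called. This count was 10 without aniline control 2 or 4-chloroaniline control 1 (7.21% of all probes in both). It was 11 without aniline control 3 (6.26%) or 3,5-dichloroaniline control 2. Over all probes, leaving out aniline control 1 called 1.90% with aniline and 1.17% among the changes. With 4-chloroaniline, 0.0666% of all were called without control 1, 1.48% without control 3 and 0.433% without exposed 1. Dye calls were 23 to 33, calls in the lists drawn without a chemical 213 to 251 against 237 with all arrays, the probes meeting the rule 75 to 91, and the mean r 0.10 to 0.14. Median changes were -0.07 to 0.03 with aniline, 0.07 to 0.24 with 4-chloroaniline, 0.030 to 0.19 with 3,5-dichloroaniline and 0.05 to 0.11 in the mean. Array quality weights called 11 of the 85 with aniline, 3 with 4-chloroaniline, 2 with 3,5-dichloroaniline, 3 in the mean, 22 among the changes, 53 among the control groups and 365 in the lists, with medians of -0.14 with aniline and 0.37 with 4-chloroaniline; over all 6006 probes they called 623, 11, 41, 12, 790 and 3153 in the first 6 of these comparisons. Quantile normalization called 2 with aniline (0.583% of all probes), 3 among the changes (0.183% of all) and 137 in the lists. Its median with aniline was -0.10, and that after scaling to equal spread was also -0.10. Fitting only the arrays compared called 7 among the control groups (3.75% of all probes) and gave a median of 0.056 for 3,5-dichloroaniline. A dye effect for each chemical, added after seeing the data, called 10 among the control groups and gave a median of 0.056 for 3,5-dichloroaniline. The replicate block called 1 with 4-chloroaniline (DM08571P2, adjusted p of 0.0178), against 0.117% of all probes, and 8 for dye, against 9.19%. It gave a median of 0.12 for 3,5-dichloroaniline, moved no other count by over 1.5 times, and leaves the control groups untestable. Testing only probes with an SD above the median gave 1 call with 4-chloroaniline, of 4 probes called in all. That SD included the arrays of the selecting chemicals. Requiring 0.4 with all 5 chemicals left 44 probes. The causes were not tested. Thresholds of 0.3 and 0.5 gave 125 and 65 probes, quantile normalization 60, of which 57 were among the 85, and leaving out 3-chloropropanol 116. The dye test gives no value with only the arrays compared, without a dye term or with a dye effect for each chemical. Of 594 values of the 22 named members for the mean of the 3, 563 kept their sign and side of the threshold, 28 had the other sign uncalled, and 3 passed it, all under array weights (DM07391P2, DM08411P1 and DM08571P2).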

Other observations

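Outside the 85, the list drawn without 2,3,4-trichloroaniline held 10 probes that were called lower with that chemical. They were higher in plain means with isobutanol, 3-chloropropanol, 3,4-dichlorophenol and cadmium, as the list required. Their differences with cadmium ran from 0.01 (DM06926P4) to 0.62 (DM07826P1). Their changes with 2,3,4-trichloroaniline ran from -2.10 ± 0.54 (SE, DM06524P3, adjusted p of 0.0212 in limma) to -1.28 ± 0.32 (DM10817P4, 0.0194). They were singled out after their values were seen. DM06524P3 had -1.37, -1.58 and -0.56 in exposed animals of that experiment, against 1.46, 1.28 and -0.32 in controls. With 3-chloropropanol it had -1.44, -1.24 and 1.84 in exposed animals, against -2.20, -2.81 and -1.90 in controls. The groups did not overlap in either experiment, and 1 array stood apart in the 2,3,4-trichloroaniline controls and 1 in the 3-chloropropanol-exposed animals. In all 10 probes, the same array was lowest among the 2,3,4-trichloroaniline controls. Likewise, the same array was highest among the 3-chloropropanol-exposed animals, so the 10 are not independent results.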
